A study of Sorghum bicolor with 12 samples.

Results

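Short coding sequences, which encode proteins of 80 codons or fewer, were followed through RNA and ribosome footprints in sorghum shoots. A transcript was included when its deposited coding length was 240 bases or less and its RNA counts summed to 600 or more over the 6 RNA libraries. The members were thus chosen by coding length and by RNA counts summed over both treatments, 205 of the 34026 transcripts that had both kinds of count, and each came from a different locus. The coding lengths ran from 93 to 240 bases, that is 31 to 80 codons, with a median of 70 codons. They are called small-protein transcripts below, and the 13071 transcripts with a longer coding sequence and the same RNA minimum are called longer transcripts. Their RNA level is therefore given as a description only.

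Small proteins carry out many basic tasks in plant cells. They include the smallest proteins of the ribosome, single-helix subunits of the photosynthetic and respiratory complexes, metal-binding metallothioneins and precursors of secreted signalling peptides. Short reading frames are also the hardest to annotate, since a stretch without a stop codon can arise by chance in RNA that encodes no protein. Ribosome profiling bears on this, because it sequences the mRNA fragments that translating ribosomes shield from nuclease, and the ratio of footprints to RNA is used as a measure of translational efficiency.

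The plants were inbred line BTx623, and the tissue was the whole shoot. Sulfur-deficient shoots had been given a diluted Hoagland's nutrient solution with 10 µM sulfate and control shoots one with 500 µM, for 8 days after 5 days of germination; the series design text gives 0 µM for the deficient solution. There were 3 sulfur-deficient and 3 control shoots, described as biological replicates, and 1 powdered shoot supplied both its footprint and its RNA library. Footprint libraries held 6328659 to 11066815 counts and RNA libraries 13995665 to 18475153. The small-protein transcripts took 0.681% to 0.887% of the footprint counts and 0.762% to 0.842% of the RNA counts of a shoot. The deposited tables pair no transcript ID with a gene name, and 0 IDs were found in the reference gene table. Transcripts are therefore given by ID without a role, and the tissue label was not checked against marker genes.

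Levels are given as CPM, counts scaled to library size, per transcript and not per base, since the tables give no length of the whole transcript. RNA of the small-protein transcripts ranged from 6.41 to 2188 CPM, with a median of 14.6 and quartiles of 9.35 and 38.0 CPM. A share of 32.7% of them stood under 10 CPM in RNA, against 13.9% of longer transcripts. A single transcript, Sobic.005G228700.1 (77 codons), stood apart from all the others. It had 2652, 4222 and 1994 CPM in footprints in sulfur-deficient shoots 1, 2 and 3, against 2155, 1543 and 1688 CPM in control shoots 1, 2 and 3. Its RNA was 2532, 2302 and 2360 CPM in the sulfur-deficient shoots, against 2016, 1843 and 2074 CPM in the control shoots. The treatments overlapped in footprints and did not overlap in RNA. This transcript alone held 29.8% of all footprints and 27.9% of all RNA counts of the small-protein transcripts. At 30.9 CPM of footprints per codon it ranked 6 among all 34026 transcripts.

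The next 4 transcripts by RNA fell into a pair with footprints near the RNA level and a pair with far fewer. Sobic.008G129400.1 (64 codons) had 125 ± 22.5 CPM in footprints and 119 ± 5.85 CPM in RNA (SD, n = 6 shoots). Sobic.002G369000.1 (78 codons) had 160 ± 80.7 CPM in footprints and 124 ± 17.9 CPM in RNA, and its footprints were highest, at 309 CPM, in sulfur-deficient shoot 2. By contrast, Sobic.001G329300.1 (78 codons) had 11.4 ± 1.81 CPM in footprints and 175 ± 12.7 CPM in RNA, the second highest RNA level of the set. The third highest, Sobic.003G168200.1 (54 codons), had 2.39 ± 0.691 CPM in footprints and 165 ± 21.2 CPM in RNA. RNA was thus 15.3 times the footprint level for the first of this pair and 69.2 times for the second.

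**Figure D1:**
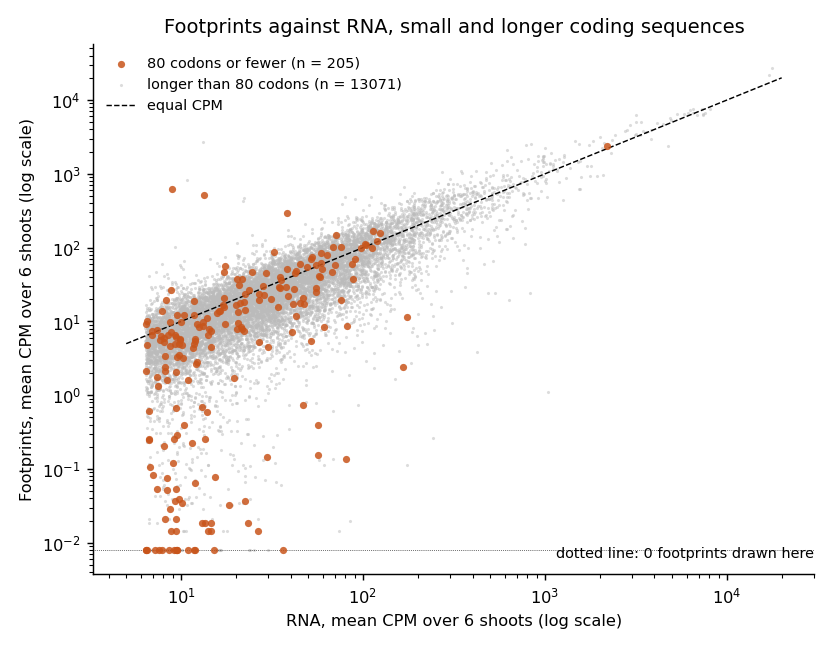
Mean footprint CPM (vertical axis, log scale) against mean RNA CPM (horizontal axis, log scale) over 6 shoots, with 205 small-protein transcripts in orange over 13071 longer transcripts in grey. Most small-protein transcripts follow the grey band, while a column of them at low RNA levels runs down to the dotted line, where the 16 with a footprint count of 0 are drawn.

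Many small-protein transcripts had almost no footprints. Over the 6 footprint libraries together, 59 of 205 (28.8%) had fewer than 60 footprints, 40 (19.5%) fewer than 6 and 16 (7.80%) none. Among longer transcripts with the same RNA minimum these shares were 2.63% (344 of 13071), 0.750% (98) and 0.252% (33). The transcripts with few footprints were among the less abundant ones, with a median of 9.51 CPM in RNA, against 20.7 CPM for the 146 with 60 or more footprints. When the RNA minimum was doubled to 1200 counts, 20 of 116 transcripts (17.2%) had fewer than 60 footprints, and with a minimum of 300 counts 129 of 305 (42.3%) did. Some with few footprints had more RNA than that. Sobic.006G177900.1 (74 codons), picked out after its values were seen, had RNA levels of 31.8, 35.6 and 37.1 CPM in the sulfur-deficient shoots and 34.1, 25.2 and 53.3 CPM in the control shoots, from 3402 RNA counts in all. Its footprint count was 0 in all 6 libraries, so its footprints were at least 629.5-fold lower than its RNA on the CPM scale, taking 3 counts over all libraries as the limit. Likewise picked out afterwards, Sobic.003G172250.1 (46 codons) had 80.8 ± 5.14 CPM in RNA and 0.138 ± 0.118 CPM in footprints (SD, n = 6 shoots), from 7 footprints in all. These limits cover counting error only.

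The 3 shortest coding sequences of the set all had far fewer footprints than RNA. Sobic.005G090401.1 (31 codons) had 1.69 ± 0.591 CPM in footprints and 19.6 ± 1.74 CPM in RNA (SD, n = 6 shoots). Sobic.010G033700.1 (34 codons) had 0.289 ± 0.146 CPM in footprints and 9.51 ± 0.588 CPM in RNA. Sobic.002G035300.1 (35 codons) had 1 footprint in all, in control shoot 2, and 8.85 ± 0.900 CPM in RNA.

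The log2 ratio of footprint CPM to RNA CPM was then compared across all 205 small-protein transcripts. A value of 0 means that a transcript has the same share of the footprint library as of the RNA library, and -1 that its share of footprints is lower by a factor of 2. The median ratio was -1.06 ± 0.115 in sulfur-deficient shoots and -1.03 ± 0.190 in control shoots (SD of the median, n = 3 shoots each). For longer transcripts it was -0.365 ± 0.0133 in sulfur-deficient shoots and -0.367 ± 0.0122 in control shoots. The difference between the classes, small-protein minus longer, was -0.695 ± 0.120 in sulfur-deficient shoots and -0.665 ± 0.198 in control shoots, and it was negative in each of the 6 shoots, from -0.892 to -0.528. In control shoots it lay at -1.30 ± 0.206 with the RNA minimum at 300 counts and at -0.210 ± 0.285 with the minimum at 1200, where it was smaller than the spread between shoots (SD, n = 3).

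The ratios had a long lower tail. In it, 46 transcripts (22.4%) had a mean log2 ratio under -6, against 1.06% of longer transcripts, and for all of them except Sobic.003G168200.1, with 127 footprints, the values rest on fewer than 60 footprints and on the prior count of 0.5. In the main body, 54 (26.3%) lay between -1 and 0 and 38 (18.5%) between 0 and 1, where 37.7% and 30.6% of longer transcripts lay. Between the 5th and 95th percentiles the ratio spanned 368-fold for small-protein transcripts and 12.5-fold for longer ones, a span whose lower end the prior count helps to set. With 60 or more footprints it spanned 14.5-fold for small-protein transcripts and 9.22-fold for longer ones. The 146 small-protein transcripts with 60 or more footprints had quartiles of -1.21 and 0.0827 and a median of -0.42. The 12727 longer transcripts with 60 or more footprints had quartiles of -1.04 and 0.226 and a median of -0.34. Of this subset the median in control shoots was -0.414 ± 0.190, against -0.334 ± 0.00840 for longer transcripts (SD, n = 3 shoots each), a difference smaller than the spread between shoots. Once transcripts with few footprints were set aside, the medians of the classes thus lay closer together. The subset was formed on footprint counts, which enter the ratio, so it serves as a description only.

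The share of transcripts with few footprints fell with coding length. The share with fewer than 60 footprints was 55% of 20 transcripts of 31 to 50 codons, 31.4% of 35 with 51 to 60 codons, 28.3% of 60 with 61 to 70 codons and 22.2% of 90 with 71 to 80 codons. Beyond the limit it went on falling, to 17.7% of 192 transcripts of 81 to 100 codons, 10.9% of 915 with 101 to 160 codons and 1.87% of 7014 with 161 to 500 codons. For this share, the limit of 80 codons lay on a gradient. The median log2 ratio was -4.96, -1.49, -0.706 and -0.791 in the 4 classes of small-protein transcripts, in order of length. With 60 or more footprints it was -1.14 (9 transcripts), -0.597 (24), -0.303 (43) and -0.418 (70), and -0.311 for the 158 of 81 to 100 codons. Without that footprint minimum, the median ratio was -0.558 at 81 to 100 codons, -0.339 at 101 to 160 and -0.3045 at 161 to 500. It was lower again in the longest classes, at -0.445 for 501 to 1000 codons and -0.557 above 1000. Within the set, Spearman's rho of ratio and coding length was 0.143 across 205 transcripts and -0.00415 across the 146 with 60 or more footprints. That of ratio and RNA level was 0.273 across the 205, with RNA entering both measures. How the length of the untranslated regions enters the RNA counts is not given in the sources used here, and its part in these ratios was not tested.

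**Figure D2:**
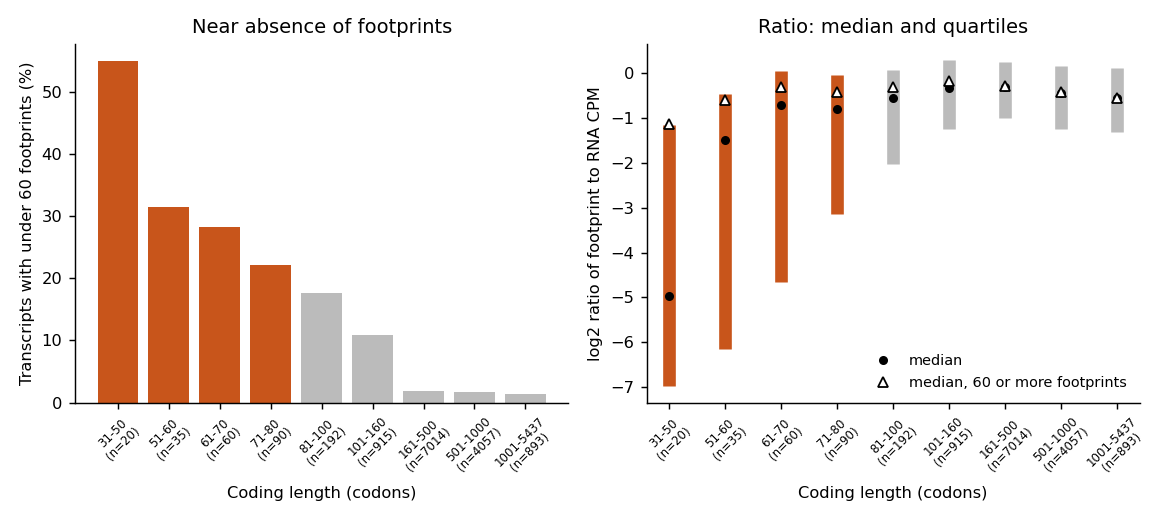
Left, the percentage of transcripts with fewer than 60 footprints over 6 libraries by coding length in codons; right, the log2 ratio of footprint to RNA CPM, with bars from the first to the third quartile, dots for medians and open triangles for medians of transcripts with 60 or more footprints. Orange marks small-protein classes and grey longer ones; the share falls from 55% at 31 to 50 codons to 22.2% at 71 to 80 codons, and the triangles lie closer together than the dots.

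Transcripts next to the limits of the rule had the following values. The 13 transcripts of 240 bases had a median log2 ratio of -1.96, with 4 under 60 footprints, and the 11 of 243 bases one of -0.823, also with 4. The highest RNA levels among these were 30.1 CPM at 240 bases (Sobic.001G291600.1, 15.4 to 44.4 CPM over 6 shoots) and 111 ± 4.95 CPM (SD, n = 6 shoots) at 243 bases (Sobic.010G121300.1). By RNA, Sobic.004G193500.1 with 602 counts and 261 footprints lay just inside, and Sobic.003G184699.1 with 598 counts and 6 footprints just outside. In all, 1909 coding sequences in the tables had 240 bases or less, and 10.7% of them met the RNA minimum, against 40.7% of longer ones.

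Small-protein transcripts also differed from longer ones in their IDs. The locus number ended in digits other than 00 for 57 of 205 (27.8%), against 2.74% of longer transcripts. Of these 57, 30 (52.6%) had fewer than 60 footprints, against 29 of the 148 with a number ending in 00 (19.6%). The median log2 ratios were -4.44 and -0.62. Among transcripts of 81 to 160 codons the corresponding shares were 44.0% of 91 and 9.25% of 1016, so the contrast was not confined to the shortest class. Numbers with other digits were themselves more frequent in shorter classes. They made up 55% at 31 to 50 codons, 24.4% at 71 to 80 and 2.51% at 161 to 500. The parts of ID and coding length in the footprint shares were not tested. The chromosome field of the IDs placed members on all 10 chromosomes, from 12 on chromosome 7 to 33 on chromosome 3. Of the transcripts with the RNA minimum on these chromosomes, that was 1.37% and 1.65%. The shares ran from 0.824% on chromosome 1 to 2.47% on chromosome 5. In ID order, 6 pairs of members were neighbours, and no expected number of pairs was worked out.

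A few small-protein transcripts had many more footprints than RNA. Sobic.007G145801.1 (52 codons) had 491, 383 and 889 CPM in footprints in sulfur-deficient shoots 1, 2 and 3, against 525, 654 and 769 CPM in control shoots 1, 2 and 3. Its RNA was 7.97, 9.09 and 9.49 CPM in the sulfur-deficient shoots, against 9.58, 9.98 and 7.34 CPM in the control shoots. Footprints were 69.4 times the RNA level, and its log2 ratio of 6.06 ranked 3 among all transcripts that met the RNA minimum. Sobic.009G174150.1 (50 codons) came directly after it, at rank 4, with 522 ± 199 CPM in footprints and 13.3 ± 1.18 CPM in RNA (SD, n = 6 shoots), a log2 ratio of 5.20. Sobic.003G173116.1 (63 codons) had 299 ± 133 CPM in footprints and 38.2 ± 4.69 CPM in RNA, a log2 ratio of 2.83. These 3 were the ones above a log2 ratio of 2, and their locus numbers all ended in digits other than 00. Their footprints shared a pattern over shoots, with the highest value in sulfur-deficient shoot 3 and the lowest in sulfur-deficient shoot 2, while their RNA spanned narrower ranges, the widest being 31.8 to 46.2 CPM for Sobic.003G173116.1. After them came Sobic.010G206600.1 (76 codons) at 57.3 ± 15.6 CPM in footprints and 17.4 ± 1.89 CPM in RNA, and Sobic.009G195400.1 (58 codons) at 26.4 ± 4.74 CPM in footprints and 8.79 ± 1.29 CPM in RNA. Reads shared with near-identical copies elsewhere could raise or lower any of these values, and how such reads were counted is not given in the sources used here.

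By footprints per codon, the same 3 transcripts followed Sobic.005G228700.1, with 11.9, 10.4 and 4.74 CPM per codon for Sobic.007G145801.1, Sobic.009G174150.1 and Sobic.003G173116.1. The fifth was Sobic.003G442900.1 (75 codons), with 2.25 CPM per codon, 169 ± 45.8 CPM in footprints and 114 ± 14.5 CPM in RNA. Footprint levels of all small-protein transcripts had a median of 7.41 CPM and quartiles of 0.289 and 24.7 CPM.

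At the low end, among transcripts with 60 or more footprints, Sobic.003G168200.1 and Sobic.001G329300.1, described above, had log2 ratios of -6.12 ± 0.503 and -3.94 ± 0.292 (SD, n = 6 shoots). Sobic.005G090401.1 followed at -3.56 ± 0.475. Sobic.008G011600.1 (74 codons) was at -3.26 ± 0.468, with 5.52 ± 1.42 CPM in footprints and 51.9 ± 5.04 CPM in RNA. Sobic.010G229450.1 (76 codons) was at -3.25 ± 0.331, with 8.60 ± 1.15 CPM in footprints and 82.2 ± 7.74 CPM in RNA. These 5 were chosen for their low ratios, and all but Sobic.003G168200.1 lay above the first quartile of all 205, at -5.04. Across the 205, Spearman's rho of the ratio between any 2 shoots was 0.931 to 0.977, so the order of the transcripts was nearly the same in every shoot. In each footprint library 30 to 43 of the 205 had a count of 0, and their ratios there rest on the prior count and RNA. Such a block at the low end can raise rho, and no rho is given for transcripts with 60 or more footprints.

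**Figure D3:**
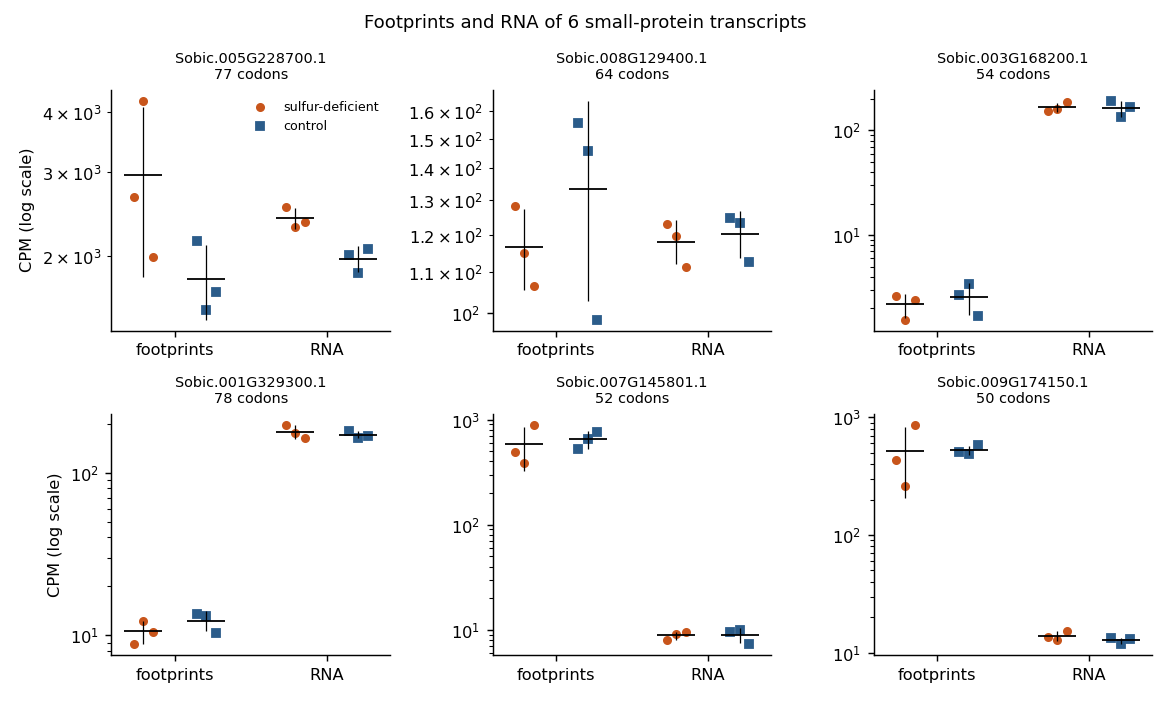
CPM (log scale) in footprints and RNA of 6 small-protein transcripts, with 3 sulfur-deficient shoots (orange circles) and 3 control shoots (blue squares) per assay, horizontal bars for means and vertical bars for the SD. Both assays stand at the same level for Sobic.005G228700.1 and Sobic.008G129400.1, footprints stand below RNA for Sobic.003G168200.1 and Sobic.001G329300.1, and far above RNA for Sobic.007G145801.1 and Sobic.009G174150.1.

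Shoots differed in how well short coding sequences were covered by footprints, and the difference did not follow the treatment. For the 146 small-protein transcripts with 60 or more footprints, each transcript's log2 footprint level in a shoot was set against its own mean over the 6 shoots. The median deviation was -0.0777, 0.130 and -0.136 in sulfur-deficient shoots 1, 2 and 3, and 0.174, 0.187 and -0.253 in control shoots 1, 2 and 3. In control shoot 3, 119 of the 146 lay below their own mean, and in control shoot 1 only 32 did. The same transcripts deviated by -0.0537 to 0.0553 in RNA. For longer transcripts the median deviation in footprints was between -0.0150 and 0.0214 in every shoot. Longer transcripts largely set the scaling to library size, so a pooled median near 0 follows from it and is no contrast. Single length classes of longer transcripts did deviate, as given in the next paragraph. Over control shoots, the median SD of the log2 ratio was 0.273 for these 146 and 0.159 for longer transcripts with 60 or more footprints. Median RNA was 20.7 and 28.8 CPM in the same order, and the part of count level in these SDs was not tested.

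These deviations were set out by coding length. In control shoot 3 the median footprint deviation was -0.283 at 31 to 50 codons (9 transcripts), -0.289, -0.286 and -0.241 in the other 3 small-protein classes, -0.198 at 81 to 100 codons and -0.203 at 101 to 160. It was -0.0265 at 161 to 500, 0.0815 at 501 to 1000 and 0.123 above 1000 codons. Control shoots 1 and 2 stood on the other side of 0 in the short classes. Control shoot 1 was at 0.148 to 0.247 in the small-protein classes, 0.155 at 81 to 100 codons and -0.0532 above 1000 codons. Control shoot 2 was at 0.179 to 0.193 in the small-protein classes and at 0.0321 at 81 to 100 codons, so its deviation dropped at the limit of the set. The sulfur-deficient shoots differed among themselves too. Sulfur-deficient shoot 1 was at -0.109 to -0.0341 in the small-protein classes and between -0.00554 and 0.00213 in the classes above 160 codons. Sulfur-deficient shoot 2 stood at 0.107 to 0.163 in the classes from 51 to 80 codons and at -0.155 above 1000 codons, although it was also at -0.155 in the shortest class with its 9 transcripts. Sulfur-deficient shoot 3 was at -0.153 to -0.0608 in the small-protein classes and at 0.114 above 1000 codons. In each of the 6 shoots, the classes of 81 to 100 and 101 to 160 codons deviated to the same side as the classes from 51 to 80 codons. The part of these deviations in the responses given next was not tested.

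**Figure D4:**
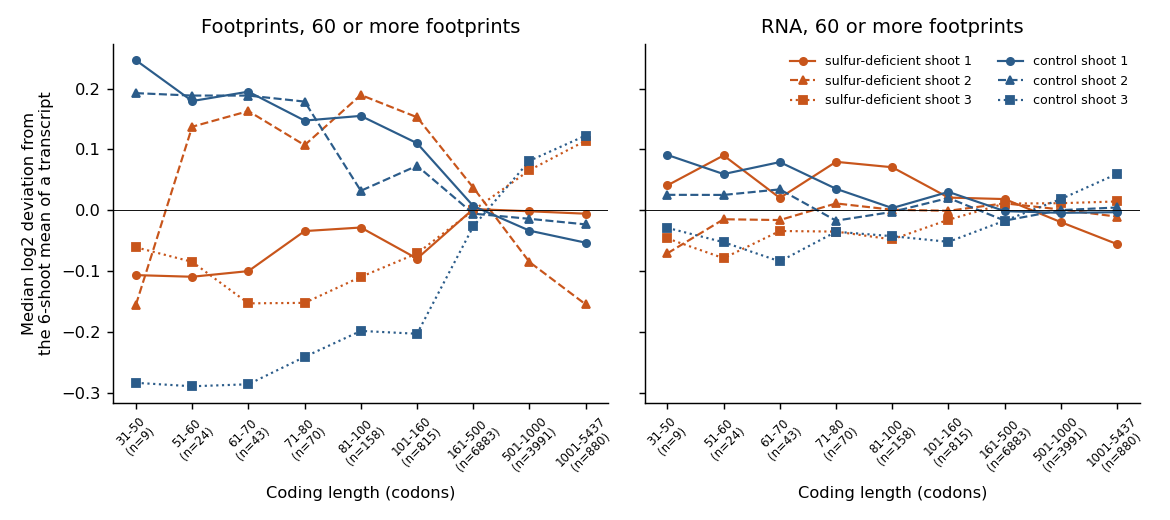
Median log2 deviation of a transcript in a shoot from its own mean over 6 shoots, in footprints (left) and RNA (right), by coding length in codons, for transcripts with 60 or more footprints; sulfur-deficient shoots are orange, control shoots blue, and the line style gives the shoot number. Footprint lines lie from -0.283 in control shoot 3 to 0.247 in control shoot 1 at 31 to 50 codons and from -0.0265 to 0.0373 at 161 to 500 codons, while RNA lines stay within 0.1 of 0.

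The response to low sulfate was read from tests fitted to all transcripts. In whole shoots, fewer cells of a type and less RNA per cell cannot be told apart. In RNA, edgeR's quasi-likelihood test called 0 of the 205 small-protein transcripts, against 0.634% of the 20045 transcripts tested (0.564% higher and 0.0698% lower under deficiency). The lowest adjusted p was 0.155, for Sobic.005G228700.1. At an unadjusted p under 0.05 there were 22 (10.7%), against 12.2% of all tested, and DESeq2 called 0, with 17 at that unadjusted level and 1 left without an adjusted p. For DESeq2 the share over all transcripts at that level is not given, here or for footprints and efficiency below. The groups did not overlap for 26 (12.7%), against 17.6% of all tested. With a background this low, about 1 call would be in proportion, so 0 calls do not set the small-protein transcripts apart. Their median log2 fold change was -0.00441, against -0.0103 for all tested, with 101 above and 104 below 0. The 95% interval of 200 of them (97.6%) excluded changes of 2-fold or more, up or down. The share over all tested is not given. In the median, intervals reached 0.249 to either side of the estimate, against 0.265 for all tested.

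Sobic.003G235500.1 (63 codons) had 132, 132 and 120 CPM in sulfur-deficient shoots 1, 2 and 3, against 101, 74.9 and 111 CPM in control shoots 1, 2 and 3. The log2 fold change was 0.42 ± 0.13 (SE), with an edgeR adjusted p of 0.266. Sobic.004G211866.1 (52 codons) had 18.7, 19.3 and 20.9 CPM in the sulfur-deficient shoots, against 14.7, 12.7 and 17.5 CPM in the control shoots. The log2 fold change was 0.39 ± 0.119 (SE), with an edgeR adjusted p of 0.236. For both, every sulfur-deficient shoot was above every control shoot, which was a condition for naming them, and neither passed the threshold. The value for Sobic.003G235500.1 was 0.28 without control shoot 2. Without control shoot 3, Sobic.004G211866.1 passed the threshold (log2 fold change 0.52, edgeR adjusted p = 0.0388).

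Among transcripts with a mean log2 CPM of at least 4 and no overlap between groups, the lowest RNA fold changes passed the threshold when sulfur-deficient shoot 1 was left out. Sobic.001G291600.1 (80 codons) had 32.1, 19.1 and 15.4 CPM in sulfur-deficient shoots 1, 2 and 3, against 32.3, 37.3 and 44.4 CPM in control shoots 1, 2 and 3. Its log2 fold change was -0.77 (SE 0.295, edgeR adjusted p = 0.395), and -1.14 without sulfur-deficient shoot 1 (edgeR adjusted p = 0.00461). Sobic.004G217600.1 (75 codons) had 33.0, 26.5 and 24.2 CPM in the sulfur-deficient shoots, against 36.1, 33.9 and 33.1 CPM in the control shoots, a log2 fold change of -0.30 ± 0.109 (SE, adjusted p = 0.321 by edgeR), and of -0.44 without sulfur-deficient shoot 1 (adjusted p = 0.0210). In each case sulfur-deficient shoot 1 stood nearest to the control shoots. Without it 5 small-protein transcripts were called, all lower, when 2.51% of all transcripts tested were called. Without control shoot 3 there were 2, of which 1 was higher and 1 lower, when 2.28% of all were called. The directions of the calls over all transcripts are not given for these fits. The largest RNA fold change, 1.15 on the log2 scale, belonged to Sobic.003G237600.1 (60 codons), named after its values were seen. It rested on sulfur-deficient shoot 1 and control shoot 3, at 37.9 and 14.9 CPM, with the other 4 shoots at 0.925 to 1.35 CPM (SE 1.84, edgeR adjusted p = 0.851). Its footprints were also highest in those shoots, at 14.7 CPM in sulfur-deficient shoot 1 and 3.26 CPM in control shoot 3, with the other 4 at 0.240 to 0.771 CPM.

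In footprints, 145 of the 205 small-protein transcripts passed the filter on low counts and were tested, and the 60 others are not covered by these counts. The edgeR test called 0 of the 145, against 0.224% of 16514 transcripts tested (0.212% higher and 0.0121% lower under deficiency), with a lowest adjusted p of 0.369. There were 14 (9.66%) at an unadjusted p under 0.05, against 6.9% of all tested, and DESeq2 called 0 with 12 at an unadjusted p under 0.05. Groups did not overlap for 11 (7.59%), against 10.9% of all tested. The median log2 fold change was -0.0855, against 0.000818 for all tested, and 73.1% of the 145 had a 95% interval that excluded changes of 2-fold or more. That share over all tested is not given. In the median, intervals reached 0.523 to either side of the estimate, against 0.442 for all tested.

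Sobic.004G088000.1 (61 codons) had 13.2, 11.7 and 9.02 CPM in footprints in sulfur-deficient shoots 1, 2 and 3, against 25.3, 26.5 and 14.3 CPM in control shoots 1, 2 and 3. The log2 fold change was -0.97 ± 0.247 (SE), with an edgeR adjusted p of 0.369. Every sulfur-deficient value lay below every control value, as the choice of named transcripts required, control shoot 3 being the nearest. In RNA its log2 fold change was -0.61 (SE 0.243, edgeR adjusted p = 0.395), and without sulfur-deficient shoot 1 it was among the 5 called (-0.96, edgeR adjusted p = 0.000808). Sobic.004G211866.1 had 25.2, 30.0 and 23.4 CPM in footprints in the sulfur-deficient shoots, against 19.5, 12.6 and 15.6 CPM in the control shoots (log2 fold change 0.73 ± 0.186, SE, adjusted p = 0.369 by edgeR). Its groups did not overlap in either assay, a condition under which it was named in each. Sobic.003G075000.1 (66 codons) had 20.8, 35.1 and 19.3 CPM in the sulfur-deficient shoots, against 15.6, 15.5 and 18.4 CPM in the control shoots (log2 fold change 0.61 ± 0.224, SE, adjusted p = 0.656 by edgeR). The highest of these was sulfur-deficient shoot 2, and without it the log2 fold change was 0.28. For the abundant Sobic.005G228700.1 the log2 fold change was 0.72 in footprints (SE 0.251, edgeR adjusted p = 0.645) and 0.28 in RNA (SE 0.0711, edgeR adjusted p = 0.155).

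**Figure D5:**
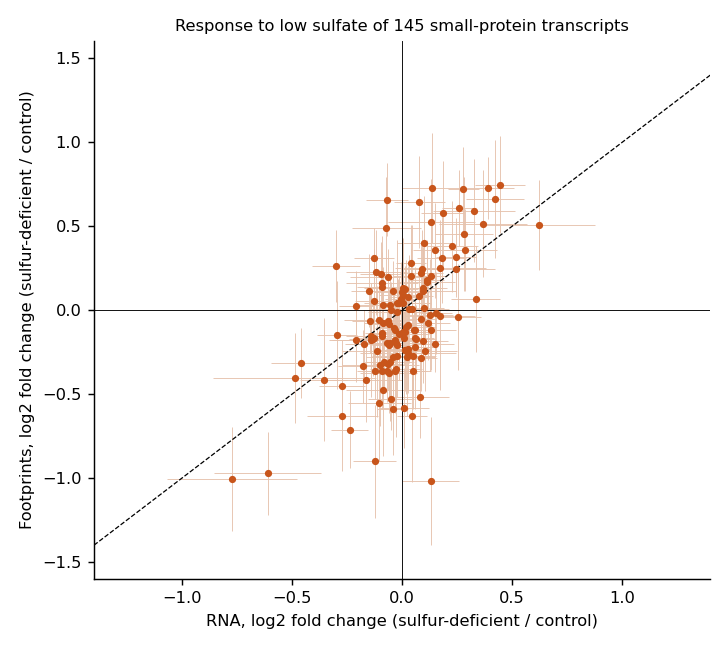
Log2 fold changes of sulfur-deficient over control shoots in footprints (vertical axis) and RNA (horizontal axis) for the 145 small-protein transcripts tested in both assays. Bars are 1 SE derived from edgeR's F statistic, and the dashed line marks equal change. None of the 145 passed the threshold in either assay, and the footprint values spread more widely than the RNA values.

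For translational efficiency the question was whether footprints responded to low sulfate differently from RNA. The edgeR test called 0 of 145 small-protein transcripts, as it called 0 of 16420 transcripts in all (0%), with 6 (4.14%) at an unadjusted p under 0.05, against 2.5% of all tested. DESeq2 called 0, with 5 at an unadjusted p under 0.05, and edgeR with a shoot term also called 0, with 9 at this unadjusted level. Shares over all transcripts are not given for either fit, so the 5 and the 9 have no background to be set against. The ratio did not overlap between groups for 11 (7.59%), against 8.11% of all tested. The median log2 change was -0.0387, against 0.0139 for all tested, and 95% intervals reached 0.563 to either side of the estimate in the median, against 0.479. For 103 of 145 (71.0%) the interval excluded changes of 2-fold or more, and for the others it did not. The share over all tested is not given.

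Sobic.004G031200.1 (42 codons) had log2 ratios of -1.03, -0.535 and -1.39 in sulfur-deficient shoots 1, 2 and 3, against -1.44, -1.66 and -1.91 in control shoots 1, 2 and 3, a log2 change of 0.73 (SE 0.246, edgeR adjusted p = 1.00). Sobic.004G217600.1 had -0.515, 0.074 and -0.589 in the sulfur-deficient shoots, against -0.823, -0.727 and -1.14 in the control shoots (log2 change 0.56, SE 0.256, edgeR adjusted p = 1.00). For both, every sulfur-deficient value lay above every control value, which was again a condition for naming them. Without sulfur-deficient shoot 2 the log2 changes were 0.48 for Sobic.004G031200.1 and 0.33 for Sobic.004G217600.1. Sobic.002G282400.1 (79 codons) had -0.518, -0.327 and -0.153 in the sulfur-deficient shoots, against 0.0428, 0.121 and -0.144 in the control shoots (log2 change -0.34, SE 0.174, edgeR adjusted p = 1.00). Its groups were separated by less than 0.01, and none of these differences passed the threshold.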

How the data were processed

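The authors deposited raw RNA read counts per transcript and raw footprint counts, P sites summed over the coding sequence, with a coding length per transcript and no normalization, per the file headers. The submitters' processing notes list Bowtie2 and STAR but assign neither a step. The sources used here do not give the counting program, build, annotation, P-site offsets or handling of reads that match several transcripts, and any of them could shift values of short coding sequences. Per the labels' protocols, footprints of 26 to 34 nt were cut from a gel.

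CPM are counts over TMM-scaled library totals, and ratios add a prior count of 0.5. All transcripts were tested with edgeR 4.0.16 (robust quasi-likelihood, TMM, filterByExpr with a minimum count of 10 and total of 15, Benjamini-Hochberg adjusted p threshold of 0.05) in R 4.3.3, footprints and RNA separately and efficiency in 1 model over 12 libraries. The scripts were tested on simulated data. DESeq2 1.42.0, other scaling and filters, other rule limits, blocks and left-out shoots were alternatives.

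Libraries of a group differed by chi-square statistics of 2.70 to 18.8 per degree of freedom, above sampling noise. Replicate numbers did not pair the treatments (correlations of deviations -0.140 to 0.157 in RNA). Footprints and RNA of a shoot came from 1 powder (0.102 to 0.521). No label names a batch or date. The members and all lists were chosen with earlier results of these data known. Named transcripts were those with the highest RNA, the most extreme ratios, the most footprints per codon, the shortest coding lengths, the nearest to the rule's limits, and, with 0 calls, up to 2 of the highest and lowest fold changes per comparison at a mean log2 CPM of at least 4 without overlap. Lists by product description could not be used, since 0 IDs matched a name.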

Additional observations from a re-analysis of the deposited data

Results flagged for a closer look

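Some transcripts with a signal lay outside the comparisons. Of the coding sequences of 240 bases or less that missed the RNA minimum, 13 had 600 or more footprints over the 6 footprint libraries. Their footprint counts ran from 805 to 14462 and their RNA counts from 0 to 392, with 7 of them under 60 RNA counts. The highest was Sobic.002G288700.1, with 14462 footprints and 25 RNA counts. Its coding length is 123 bases. Separately, 184 transcripts were listed in the RNA table alone, with no coding length, and 8 of these had 600 or more RNA counts, up to 12835. Whether any of them encodes a small protein was not analysed here. Both kinds were picked out because they had 600 or more counts in data that the comparisons do not use.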

How the results depend on the processing

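Calls of small-protein transcripts in RNA numbered 0 with all shoots and 0 to 5 with 1 shoot left out (5 without sulfur-deficient shoot 1, 2 without control shoot 3). They were 0 in footprints and in efficiency under all 11 alternatives. With the replicate block (replicate number for RNA and footprints, the shoot for efficiency) there were 0 in each, with 24 (RNA), 15 (footprints) and 9 (efficiency) at an unadjusted p under 0.05. The block changed no call. Numbers at this unadjusted edgeR level moved with single shoots. In footprints they were 14 with all shoots, 36 without control shoot 3, 31 without sulfur-deficient shoot 3 and 5 without control shoot 2. In efficiency they were 6, 20, 20 and 3 in the same order. Shares over all transcripts at this level are not given for these fits or for the replicate block. The 10 named fold changes kept their direction in 110 recalculations, though 4 of them moved by over 1.5 times with 1 shoot left out, as given with them. The median log2 ratio of small-protein transcripts depended on the limits of the rule. In sulfur-deficient shoots (-1.06) it was -0.581 with an RNA minimum of 1200 counts, -1.78 with 300, -1.89 with a length limit of 180 bases and -0.835 with 300. In control shoots (-1.03) it was -0.526, -1.71, -2.02 and -0.804 in the same order, and the difference from longer transcripts (-0.665) was -0.210, -1.30, -1.65 and -0.440. With 60 or more footprints and a limit of 180 bases it was -0.634 (main -0.414). The share with fewer than 60 footprints (28.8%) was 17.2% at 1200 counts, 42.3% at 300, 40% with 180 bases and 23.4% with 300. These shifts follow from which transcripts enter, and shares of longer transcripts with fewer than 60 footprints are not given for these limits. Alternatives for this share and for the subset with 60 or more footprints were chosen after seeing the data. Footprint libraries were shallower than RNA libraries, and the part of depth in the wider footprint and efficiency intervals was not tested.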

Other observations

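A stretch of IDs on chromosome 3, from Sobic.003G166400.2 to Sobic.003G173266.1, was picked out after its values were seen, with both ends set at transcripts with many footprints and little RNA. It holds 80 transcripts of any length, of which 13 had 600 or more footprints and a log2 ratio of footprint to RNA CPM above 2. Among all 34026 transcripts, 93 (0.273%) did. The count of 13 was shaped by the choice of the ends and is a description only. Small-protein transcripts there lay at both extremes. Sobic.003G173116.1 had 15926 footprints and 3558 RNA counts, whereas Sobic.003G168200.1 had 127 footprints and 15389 RNA counts, Sobic.003G172250.1 had 7 and 7564, and Sobic.003G167632.1 had 2 and 946. The stretch also holds 5 of the 13 short coding sequences with many footprints below the RNA minimum.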
